A study of Canis lupus familiaris with 4 samples.

Results

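Caseins and other milk protein genes were followed in canine mammary ductal carcinoma and in the adjacent non-tumor mammary tissue. The group was defined by name, with earlier results of these data known. It holds CSN1S1, CSN2, CSN3, LALBA, BTN1A1, MFGE8, SLC34A2 and FABP9, all 8 of which have a row among the 11277 genes of the count tables. Total RNA was sequenced in 4 libraries, 2 of carcinoma (T1 and T2) and 2 of non-tumor tissue (C1 and C2, the control), each from RNA of 3 dogs pooled before sequencing. The tissue came from mastectomies of 6 intact female dogs of different breeds, aged 5 to 14 years, with early-stage disease. T1 and C1 came from the same dogs (pool 1) and T2 and C2 from the others (pool 2), as the methods describe. An n of 2 therefore counts pools, and differences between single dogs are not seen. The control is tissue next to a tumor in the same animals, and no source used here gives their stage of the estrous cycle or of a pseudopregnancy.

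Milk is made by the luminal secretory cells of the mammary alveoli. Under prolactin, which acts through its receptor and STAT5, and with transcription factors such as ELF5, these cells switch on the caseins, the whey protein alpha-lactalbumin and the proteins that wrap milk fat in membrane. Caseins form the micelles that carry calcium and phosphate, and alpha-lactalbumin joins a galactosyltransferase to make lactose. In mammals the casein genes lie side by side in a cluster.

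Totals were 35496260 counts in T1, 3236218 in T2, 32352002 in C1 and 4027367 in C2, so pool 2 limits the precision of genes with few counts. A single count was worth 0.0286 CPM (the library-scaled count of edgeR, after TMM) in T1, 0.297 in T2, 0.0339 in C1 and 0.232 in C2. The quasi-likelihood test of edgeR was used, and a gene was called where its log2 fold change of carcinoma over control was 1 or more in size and its adjusted p was under 0.05. Of the 8 genes 6 were lower and 2 were higher in carcinoma, where 5.24% of all genes tested were lower, 4.62% higher and 9.86% called in either direction. Their median log2 fold change was −6.14, against 0.03 over all genes tested. Since the genes were chosen with earlier results known, these contrasts with all genes are not an independent test. In all 8 the carcinoma libraries lay on one side of both controls. Over all genes both carcinoma libraries lay below both controls in 28% and above them in 29.6%, together 57.6%. With the pools paired in a replicate block the 8 calls were the same, and 6.83% of all genes were lower and 7.09% higher. The block fit leaves 1 residual degree of freedom, and its common dispersion was 0.00216, against 0.0508 without the block. Its very small adjusted p-values thus rest on 2 pools in each group and are no measure of strong replication. At a log2 fold change of 2 or more in size 6 of the 8 genes were lower and 1 was higher, where 2.39% of all genes were lower and 1.79% higher. With 2 pools in each group an exact permutation test has a smallest two-sided p of 0.333. All calls therefore come from the edgeR fit over the whole table. Error intervals given for counts are 95% exact intervals and cover counting error only.

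All 3 caseins fell. CSN2, which encodes beta-casein, had 437 and 18 counts in T1 and T2 (12.5 and 5.35 CPM), against 23827 and 1900 counts in C1 and C2 (807 and 440 CPM). Each carcinoma library was far below either control, and the groups did not overlap. The log2 fold change was −5.97 (standard error 0.52, adjusted p = 0.00379 by edgeR), or 62.8-fold lower in carcinoma.

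CSN3 encodes kappa-casein, which coats and stabilizes the micelle. It had 161 and 5 counts in T1 and T2 (4.61 and 1.49 CPM), against 12547 and 785 counts in C1 and C2 (425 and 182 CPM). The controls differed from each other more for CSN3 than for the other caseins, and both stood well above the carcinomas. Its log2 fold change was −6.31 (standard error 0.63, adjusted p = 0.00510 by edgeR).

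CSN1S1 encodes alpha-s1-casein, a calcium-binding casein of the micelle. It had 31 and 2 counts in T1 and T2 (0.887 and 0.595 CPM), against 7724 and 908 counts in C1 and C2 (262 and 210 CPM). The 2 counts of T2 allow 0.0720 to 2.15 CPM, a range that holds the level of T1. On the log2 scale the difference was −8.11 (standard error 0.24, adjusted p = 8.91e-04 by edgeR), rank 5 of all 11277 by fall in this fit.

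LALBA, the gene of alpha-lactalbumin, moved like the caseins. It had 81 and 3 counts in T1 and T2 (2.32 and 0.892 CPM), against 8733 and 906 counts in C1 and C2 (296 and 210 CPM). The groups did not overlap, and the log2 fold change was −6.95 (standard error 0.36, adjusted p = 0.00182 by edgeR). B4GALT1, the galactosyltransferase that alpha-lactalbumin joins to make lactose, had 205 and 250 CPM in carcinoma, against 149 and 196 CPM in control, and did not pass (log2 fold change 0.40, adjusted p = 0.232 by edgeR).

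Genes that encode proteins of the milk fat globule membrane went in opposite directions. BTN1A1 encodes butyrophilin, the main protein of that membrane, which binds xanthine oxidoreductase at the cell apex. It had 236 and 29 counts in T1 and T2 (6.75 and 8.62 CPM), against 2278 and 467 counts in C1 and C2 (77.1 and 108 CPM). All 4 levels are precise relative to the gap, and the log2 fold change was −3.64 (standard error 0.26, adjusted p = 0.00259 by edgeR), a 12.5-fold lower level in carcinoma.

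MFGE8 encodes lactadherin, which coats the milk fat globule and also bridges dying cells to phagocytes. It had 7434 and 985 counts in T1 and T2 (213 and 293 CPM), against 2342 and 469 counts in C1 and C2 (79.3 and 109 CPM). Both carcinomas were above both controls, and the log2 fold change was 1.43 (standard error 0.23, adjusted p = 0.0193 by edgeR), or 2.70-fold higher.

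SLC34A2, which encodes a sodium-phosphate cotransporter of secretory epithelia, was the other gene that rose, from far fewer counts. It had 337 and 42 counts in T1 and T2 (9.64 and 12.5 CPM), against 88 and 8 counts in C1 and C2 (2.98 and 1.85 CPM). The groups did not overlap, and the log2 fold change was 2.09 (standard error 0.37, adjusted p = 0.0238 by edgeR). This call depended on the controls, since the adjusted p was 0.0613 without C1 and 0.0690 without C2. Over its 10 alternatives the adjusted p ran from 1.21e-15, with a replicate block, to 0.0690.

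FABP9 encodes a fatty acid binding protein known in rodents from sperm. It had 10 and 0 counts in T1 and T2, against 1303 and 126 counts in C1 and C2 (44.1 and 29.2 CPM). T1 stood at 0.286 CPM, and the 0 of T2 was set at a floor of 3 counts, or 0.892 CPM, where the upper limit of its two-sided interval is 1.10 CPM. The log2 fold change was −7.17 (standard error 0.54, adjusted p = 0.00290 by edgeR), and this fitted value depends on how the empty library is treated. The gene model behind this row differs from RefSeq. It spans 18184 bases in the count tables, 5.07 times the RefSeq span, and only 136 of 9411 matched symbols (1.45%) had a ratio of at least 5. FABP4, the fatty acid binding protein gene of fat cells, is the next protein-coding gene in RefSeq and was not analysed here. Reads of a neighbouring gene in the FABP9 row were not tested for.

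**Figure D1:**
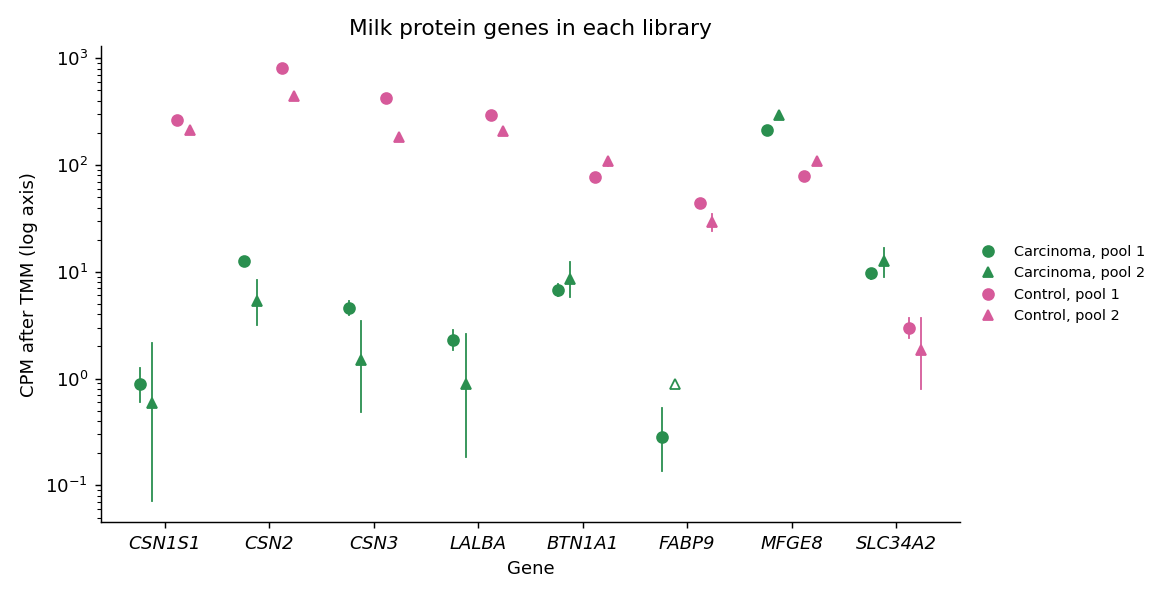
CPM after TMM (log axis) of the 8 milk protein genes in each library, carcinoma in green left of control in pink, circles for pool 1 and triangles for pool 2. Vertical lines are 95% counting intervals, and the hollow triangle marks the 0 counts of FABP9 in T2 at the level of 3 counts. The 4 points of CSN1S1 stand at 0.887 and 0.595 CPM in carcinoma and at 262 and 210 CPM in control, while MFGE8 and SLC34A2 lie higher in carcinoma.

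Since same-numbered libraries share dogs, each pool gives a ratio of tumor to neighbouring tissue within the same animals. There is 1 pair per pool and no test. CSN2 was 64.5-fold lower in pool 1 (counting interval 58.7 to 71.1) and 82.3-fold lower in pool 2 (51.9 to 139). CSN3 was 92.2-fold lower in pool 1 (79.0 to 108) and 122-fold lower in pool 2 (52.2 to 378). For both caseins the intervals of the pools overlap.

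CSN1S1 was 295-fold lower in pool 1 (208 to 434) and 354-fold lower in pool 2 (97.7 to 2926). LALBA was 128-fold lower in pool 1 (103 to 161) and 235-fold lower in pool 2 (80.3 to 1144). FABP9 was 154-fold lower in pool 1 (83.6 to 322). In pool 2 it was at least 32.7-fold lower with T2 at the floor of 3 counts, and at least 26.2-fold lower by the two-sided interval used for the other genes. The 2 or 3 counts of CSN1S1 and LALBA in T2 leave their pool 2 ratios wide, and the pools cannot be ordered from them.

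BTN1A1 was 11.4-fold lower in pool 1 (9.99 to 13.1) and 12.6-fold lower in pool 2 (8.62 to 19.0). MFGE8 had ratios of carcinoma to control of 2.68 in pool 1 (2.56 to 2.81) and 2.69 in pool 2 (2.41 to 3.01). SLC34A2 had ratios of 3.24 in pool 1 (2.55 to 4.14) and 6.74 in pool 2 (3.12 to 16.6). The ratios of BTN1A1 and MFGE8 lay close together in the 2 sets of dogs, and the wide interval of SLC34A2 in pool 2 follows from 8 control counts.

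**Figure D2:**
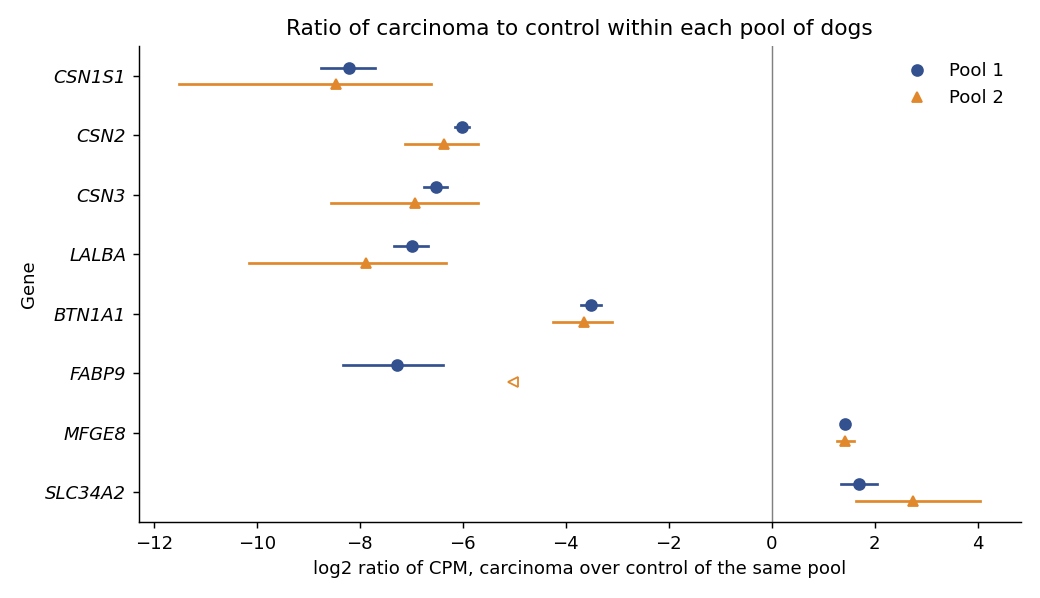
Log2 ratio of carcinoma to control CPM within pool 1 (circles) and pool 2 (triangles) for each gene, with 95% counting intervals as lines and a grey line at no difference. The hollow triangle of FABP9 in pool 2 is set from the floor of 3 counts (32.7-fold lower), where the two-sided limit is 26.2-fold. MFGE8 has nearly the same ratio in both pools, 2.68 and 2.69.

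The pools also differed from each other, and for the caseins in the same direction in both tissues. CSN3 was 3.10-fold higher in T1 than in T2 and 2.34-fold higher in C1 than in C2. CSN2 was 2.34-fold and 1.83-fold higher in pool 1 in carcinoma and in control, and LALBA 2.60-fold and 1.41-fold. BTN1A1 and MFGE8 went the other way, with pool 1 at 0.783 and 0.726 of pool 2 in carcinoma and at 0.713 and 0.730 in control. In carcinoma, the T2 counting intervals of LALBA (0.184 to 2.61 CPM) and BTN1A1 (5.78 to 12.4 CPM) hold the level of T1. So does that of CSN1S1 (0.0720 to 2.15 CPM). T2 held 3 counts of LALBA and 5 of CSN3. With 1 library per pool and tissue, the dogs, the depth and the library preparation cannot be told apart here.

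The mix of counts among the caseins and LALBA was compared as well, without a test, as each group has 2 pools. As a share of the summed counts of CSN1S1, CSN2, CSN3 and LALBA, CSN2 took 61.5% (57.9 to 65.1) in T1 and 64.3% (44.1 to 81.4) in T2, against 45.1% (44.7 to 45.5) in C1 and 42.2% (40.8 to 43.7) in C2. CSN1S1 took 4.37% (2.99 to 6.14) in T1 and 7.14% (0.877 to 23.5) in T2, against 14.6% (14.3 to 14.9) in C1 and 20.2% (19.0 to 21.4) in C2. In pool 1 the intervals of carcinoma and control lie apart for both genes, and in pool 2 those of CSN1S1 overlap, since T2 held 28 counts of the 4 genes together. For both genes the intervals of C1 and C2 also lie apart, so pools of the same tissue differ beyond counting error.

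LALBA took 11.4% (9.16 to 14.0) in T1 and 10.7% (2.27 to 28.2) in T2, against 16.5% (16.2 to 16.8) in C1 and 20.1% (19.0 to 21.3) in C2. The intervals of carcinoma and control lie apart in pool 1 and overlap in pool 2, and those of C1 and C2 also lie apart. CSN3 took 22.7% (19.6 to 25.9) in T1 and 17.9% (6.06 to 36.9) in T2. In control it took 23.7% (23.4 to 24.1) in C1 and 17.4% (16.3 to 18.6) in C2. Its intervals of carcinoma and control overlap within each pool, and those of C1 and C2 lie apart. The interval of T2, from 5 counts, holds the CSN3 shares of T1, C1 and C2. These are shares of counts, and as genes differ in length they are not shares of molecules.

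**Figure D3:**
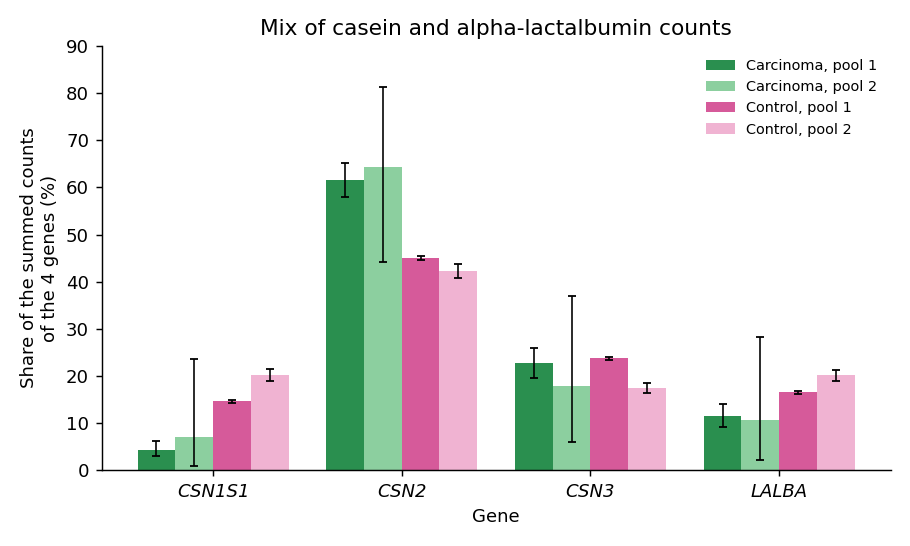
Share of each gene in the summed counts of CSN1S1, CSN2, CSN3 and LALBA, in percent, with 4 bars per gene for T1, T2, C1 and C2 and 95% exact binomial intervals as error bars. The bars of CSN2 reach 61.5% and 64.3% in carcinoma and 45.1% and 42.2% in control, and the wide intervals of T2 rest on 28 counts.

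The 3 caseins and LALBA together took 0.00143% ± 8.03e-04 of all counts in carcinoma and 0.138% ± 0.0365 in control (SD, n = 2 pools each, exact permutation test, two-sided, p = 0.333, the smallest this design allows). All 8 genes together took 0.0290% ± 0.00630 in carcinoma and 0.160% ± 0.0308 in control. Of the summed 250 and 322 CPM of the 8 genes in T1 and T2, reads counted for MFGE8 gave 213 and 293 CPM.

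In bulk tissue, fewer secretory cells and less RNA of these genes per cell cannot be told apart. Markers of the luminal epithelium give the levels beside which the milk genes stand. Of 23 luminal genes listed 16 were measured, and of these 2 were higher, 2 lower and 12 did not pass, with a median log2 fold change of 0.20. None of the 16 was at 0 in any library. Their summed level was 2499 and 2539 CPM in T1 and T2, against 2161 and 1956 CPM in C1 and C2. PROM1 alone gave 570 and 542 CPM of these sums in T1 and T2, against 86.7 and 85.1 CPM in C1 and C2. Without PROM1 the sums of the groups overlap. The keratin genes KRT7, KRT8 and KRT18 were not analysed here.

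EPCAM, an adhesion molecule of epithelial cells, had 180 and 147 CPM in carcinoma, against 252 and 155 CPM in control (log2 fold change −0.32, adjusted p = 0.472 by edgeR). CDH1, the gene of E-cadherin, had 647 and 567 CPM in carcinoma, against 670 and 514 CPM in control (log2 fold change 0.04, adjusted p = 0.911 by edgeR). KRT19, a luminal keratin gene, had 185 and 351 CPM in carcinoma, against 167 and 294 CPM in control (log2 fold change 0.22, adjusted p = 0.762 by edgeR). In these 3 genes the groups overlapped, and the sign of each changed when single libraries were left out. Within pools EPCAM was lower and KRT19 higher in both carcinomas, and CDH1 was lower in pool 1 and higher in pool 2. With the replicate block the log2 fold change of EPCAM was −0.35 (adjusted p = 8.79e-07 by edgeR). That of KRT19 was 0.19 (adjusted p = 0.00303 by edgeR). Both were under the fold threshold, and the block fit has 1 residual degree of freedom.

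The luminal genes that passed were PROM1 and the transcription factor gene TFAP2A, both higher, and the hormone receptor genes ESR1 and PGR, both lower. The calls of TFAP2A (adjusted p = 0.130 without T1 and 0.0552 without C2) and of PGR (adjusted p = 0.0683 without C1, log2 fold change −0.93 without T2) were lost when single libraries were left out, and those of PROM1 and ESR1 were not. PROM1 had 570 and 542 CPM in carcinoma, against 86.7 and 85.1 CPM in control, and ESR1 had 86.1 and 76.7 CPM in carcinoma, against 317 and 280 CPM in control. Per 1000 counts of the 16 luminal genes, CSN2 had 5.00 and 2.11 counts in T1 and T2, against 373 and 225 in C1 and C2. MFGE8 had 85.1 and 115 such counts in T1 and T2, against 36.7 and 55.6 in C1 and C2. With libraries scaled to the luminal counts, a setting chosen after the data were seen, each of the 8 genes kept its call, with a log2 fold change of −6.24 for CSN2 and 1.13 for MFGE8. This scaling moved the median of all genes by −0.29, and the luminal counts behind it include those of PROM1.

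Genes of striated muscle, another tissue the samples could hold, fell along with the milk genes. Of 12 striated muscle genes measured (of 20 listed) 11 were lower in carcinoma, and their summed level was 42.7 and 72.6 CPM in T1 and T2, against 2029 and 3162 CPM in C1 and C2. No striated muscle gene was higher by edgeR or DESeq2, and none had an unadjusted p under 0.05 in that direction (0 genes). MYL3 was at 0 in both carcinomas. Among controls the summed muscle level was higher in C2, although MYL1 and MYL2 were not, and the caseins and LALBA were higher in C1. The part of muscle tissue in the milk gene results was not tested.

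Of 10 basal and myoepithelial genes measured (of 15 listed), 1 was higher, namely KRT15, and 0 were lower by edgeR (3 of them at an unadjusted p under 0.05, and 0 called by DESeq2). With the block 3 were higher, as with DESeq2, and KRT15 lost its call without C1 (adjusted p = 0.111). Their summed level was 1774 and 2418 CPM in T1 and T2, against 1541 and 1670 CPM in C1 and C2. Of this, KRT5 gave 353 and 572 CPM in T1 and T2, against 164 and 259 CPM in C1 and C2. KRT15 gave 304 and 599 CPM in T1 and T2, against 90.7 and 152 CPM in C1 and C2. Without KRT5 and KRT15 the summed level was not higher in carcinoma. Of 15 adipocyte genes 5 were measured, and ACVR1C, an activin receptor gene, was the 1 that was called, lower in carcinoma. Its call was lost without T1, C1 or C2 (adjusted p = 0.0979, 0.0610 and 0.0610), and PLIN4, a lipid droplet gene, was called higher with the replicate block and without C2 (log2 fold change 1.31 and 1.89). The summed adipocyte level was 60.2 and 95.2 CPM in T1 and T2, against 66.3 and 80.4 CPM in C1 and C2, so the groups overlapped. ADIPOQ, PLIN1 and LEP, which define fat cells, were not analysed here.

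Genes of other proteins of milk and of the fat globule were split in direction. Of 20 genes listed 10 were measured, with 2 higher and 4 lower in carcinoma, 4 not past the test and a median log2 fold change of −0.67. LTF, the gene of the iron-binding milk protein lactoferrin, which neutrophils also make, had 2977 and 3840 CPM in T1 and T2, against 355 and 503 CPM in C1 and C2. It rose by 2.99 on the log2 scale (standard error 0.24, adjusted p = 0.00339 by edgeR), opposite to the caseins. SPP1, which encodes osteopontin, a phosphoprotein of milk and bone that macrophages also make, rose by 1.29 (adjusted p = 0.00902 by edgeR).

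XDH, which encodes xanthine oxidoreductase, the partner of butyrophilin, had 47.5 and 53.5 CPM in T1 and T2, against 109 and 116 CPM in C1 and C2. Its log2 fold change was −1.16 (standard error 0.12, adjusted p = 0.00593 by edgeR), a smaller fall than that of BTN1A1. CD36, a fatty acid receptor of the globule membrane that endothelial cells and adipocytes also carry, had 29.9 and 24.4 CPM in carcinoma, against 150 and 136 CPM in control (log2 fold change −2.37, adjusted p = 0.00209 by edgeR). The groups did not overlap for XDH or CD36.

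Genes for lactose synthesis and ion transport into milk mostly did not pass. Of 17 measured (of 21 listed) 3 were higher, namely CA2, a carbonic anhydrase gene, HK1, a hexokinase gene, and the glucose transporter gene SLC2A1, with log2 fold changes of 2.09, 1.47 and 1.52. CA2 lost its call without C1 or C2 (adjusted p = 0.0899 and 0.0504) and SLC2A1 without C1 (adjusted p = 0.108). By edgeR 0 were lower, with 1 gene at an unadjusted p under 0.05 and 1 called by DESeq2. ATP2B2 encodes the calcium pump that in rodents exports calcium into milk. It had 4.09 and 2.38 CPM in T1 and T2, against 9.28 and 13.9 CPM in C1 and C2 (log2 fold change −1.72, adjusted p = 0.0543 by edgeR), and passed with DESeq2 and with the pools paired in a replicate block. Over its alternatives the adjusted p ran from 6.11e-11, with the block, to 0.132, without C2.

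Of 15 measured genes of milk lipid synthesis (of 21 listed) 2 were lower and 13 did not pass, with a median log2 fold change of −0.10. FABP3, the fatty acid binding protein of heart and lactating gland, had 5.41 and 4.46 CPM in T1 and T2, against 14.6 and 13.4 CPM in C1 and C2 (log2 fold change −1.48, adjusted p = 0.0278 by edgeR). SCD5, a stearoyl-CoA desaturase gene, had a log2 fold change of −1.05 (adjusted p = 0.0393 by edgeR). Neither passed when any 1 of the 4 libraries was left out, with adjusted p-values from 0.0767 to 0.125 for FABP3 and from 0.0889 to 0.233 for SCD5. By edgeR 0 genes of this list were higher, with 2 at an unadjusted p under 0.05 and 0 called by DESeq2. In a further list of fatty acid and retinoid carriers, 4 genes were measured, and besides FABP3 the retinol carriers RBP4, which is secreted, and RBP7, which is intracellular, were lower, with log2 fold changes of −2.23 and −3.34. Without single libraries 1 to 2 of these 4 were lower, and RBP7 lost its call without T1 (adjusted p = 0.0676).

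Of 21 measured genes of lactogenic signaling and its transcription factors (of 25 listed) 6 were lower and 15 did not pass, with a median log2 fold change of −0.48. By edgeR 0 were higher, with 4 at an unadjusted p under 0.05 and 0 called by DESeq2. ELF5, the transcription factor of the alveolar lineage, had 30.4 and 44.9 CPM in T1 and T2, against 187 and 223 CPM in C1 and C2. PRLR, the prolactin receptor gene, had 347 and 302 CPM in T1 and T2, against 1057 and 1021 CPM in C1 and C2. Both stood lower in carcinoma without overlap, with log2 fold changes of −2.48 (standard error 0.23, adjusted p = 0.00430 by edgeR) and −1.68 (standard error 0.13, adjusted p = 0.00291 by edgeR).

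STAT5A, which carries the prolactin signal to milk gene promoters, had 40.5 and 53.8 CPM in T1 and T2, against 92.4 and 131 CPM in C1 and C2 (log2 fold change −1.26, adjusted p = 0.0287 by edgeR). Its close relative STAT5B had 156 and 182 CPM in T1 and T2, against 322 and 340 CPM in C1 and C2. STAT5B had a log2 fold change of −0.97 (adjusted p = 0.0104 by edgeR), just short of the fold threshold. STAT5A lost its call without T1 (adjusted p = 0.0552), without C2 (log2 fold change −0.99) and with library totals only (adjusted p = 0.0769), and STAT5B gained one without T2 (−1.09) and without C1 (−1.06). PTHLH, a hormone gene of the lactating gland, and TNFSF11, which encodes RANK ligand, were lower, with log2 fold changes of −1.58 and −1.64 (adjusted p = 0.00800 and 0.00650 by edgeR).

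**Figure D4:**
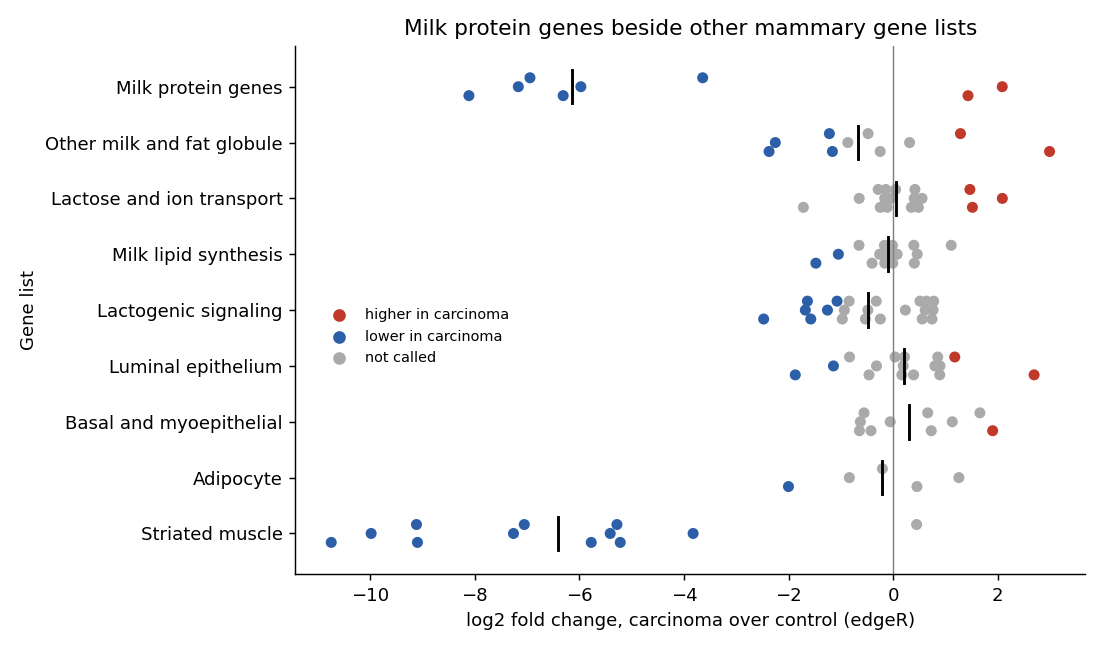
Log2 fold change of carcinoma over control (x axis) for each measured gene of 9 gene lists (y axis), red where called higher, blue where called lower and grey where not called, with a black bar at the median of each list. The milk protein genes have 6 points at −3.64 or lower and 2 above 0, and the luminal epithelium list lies around 0.20. MYL3 in the striated muscle list had 0 counts in carcinoma, so its fitted position is no bound.

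By RefSeq gene order, CSN1S1 and CSN2 are direct neighbours and CSN3 lies in the same cluster, with PRR27 and ODAM between CSN2 and CSN3. PRR27 and ODAM were not analysed here. Of 19 genes listed around the cluster 4 were measured, and none was called (edgeR, 0 at an unadjusted p under 0.05 and 0 called by DESeq2). Near LALBA, KANSL2 and CCNT1 had log2 fold changes of −0.15 and −0.09, and past FABP4 on the side of FABP9, IMPA1 and ZFAND1 had −0.30 and −0.22. None of these 4 neighbours passed, with adjusted p-values of 0.563, 0.704, 0.284 and 0.496 by edgeR. PAG1, on the other side of FABP9, did not pass either (log2 fold change −0.55, adjusted p = 0.260 by edgeR).

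Of the 4 RefSeq genes to each side of MFGE8, 6 were measured and 2 were called, both higher. ACAN, the gene of the cartilage proteoglycan aggrecan, is the second gene to one side of it in RefSeq, and had 580 and 845 CPM in T1 and T2, against 3.73 and 5.80 CPM in C1 and C2 (log2 fold change 7.34, adjusted p = 0.00182 by edgeR). HAPLN3, which lies between MFGE8 and ACAN, had a log2 fold change of 0.48 (adjusted p = 0.672 by edgeR), and AEN, beyond ACAN, one of 1.08 (adjusted p = 0.152 by edgeR), so neither passed. On the other side of MFGE8, ABHD2 had a log2 fold change of 0.88 (adjusted p = 0.0131 by edgeR), under the fold threshold, RLBP1 was higher by 2.11 (adjusted p = 0.0309 by edgeR) and FANCI did not pass (−0.32, adjusted p = 0.376 by edgeR). RLBP1 lost its call without T2, C1 or C2 (adjusted p = 0.0623, 0.218 and 0.0565). These neighbours were chosen after their values were seen.

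The genes most like the caseins and LALBA over the 4 libraries were sought by the distance of their centred log2 CPM from the mean profile of those 4 genes, among 10121 genes with a symbol, the 8 milk protein genes left out. UNC80, a subunit gene of a sodium leak channel, was the nearest of these, at a root mean square distance of 0.32. It had 1.03 and 0.297 CPM in T1 and T2, against 73.0 and 52.4 CPM in C1 and C2. The next were KCNU1, a potassium channel gene of sperm, at 0.54, and the striated muscle genes TNNT3, MYH6, MYLPF and ABRA at 0.57 to 0.63. Among the milk protein genes LALBA stood at 0.16, CSN3 at 0.31, CSN2 at 0.46 and CSN1S1 at 0.59 from the profile they helped to set. UNC80 thus stood nearer to that profile than CSN2 and CSN1S1 did. Of the milk protein genes that did not set it, FABP9 stood at 0.309, slightly nearer than UNC80 at 0.320, BTN1A1 at 1.88, MFGE8 at 4.31 and SLC34A2 at 4.65. KCNU1, TNNT3, MYLPF and ABRA had 0 counts in T2, and UNC80 and MYH6 stood at 0.297 CPM there, the worth of a single count. The distances used log2 CPM with a prior count of 2, which draws such low values together. The order of these genes by distance is therefore loose. The likeness covers 4 libraries and rests mainly on the size of the gap between carcinoma and control.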

How the data were processed

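RNA was sequenced from 2 carcinoma and 2 control pools. The paper's methods name TopHat2 and HTSeq with its default settings, which count by strand, and the submitters' processing notes name STAR and featureCounts. Which of these made the deposited counts, and so their strand setting, is uncertain, and no source used here names the genome build. The authors deposited whole-number counts per gene, not normalized, with a gene length that, by the median over matched symbols, was 0.970 of the gene span with introns in RefSeq (UU_Cfam_GSD_1.0). Shares among genes are therefore shares of counts, not of molecules, and no coordinates are given. Among the milk protein genes this ratio ran from 0.374 for MFGE8 to 5.07 for FABP9. It was 0.597 for BTN1A1, 0.634 for CSN3 and 1.33 for LALBA.

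The tests were run with edgeR 4.0.16 under R 4.3.3. All 11277 genes passed filterByExpr and were tested, with TMM normalization, the quasi-likelihood test without a block and Benjamini-Hochberg adjustment over all of them. CPM values were computed by edgeR from the library total times its TMM factor. Log2 CPM within a pool used a prior count of 2. DESeq2 1.42.0, other scalings, other filters, a replicate block and the omission of each library served as alternatives, and the scripts were tested on simulated data. There edgeR called 24% of genes with a true log2 change of 1 in size and 82% of those with 2. Of its calls 10.6% were unchanged genes, and 19.2% with the block. The simulated pools held no differences shared by both tissues. A gene that did not pass may therefore still differ. Figures were drawn with matplotlib 3.10.9. By the paper's account, same-numbered pools come from the same dogs. T1 and C1 departed from their group means together, with a correlation of 0.782 across genes, which are not independent replicates. T1 and C1 were also far deeper than T2 and C2, so this value cannot tell shared dogs from shared depth or preparation.

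The members and lists were chosen with earlier results of these data known. By rule, all members, up to 4 called genes per list (lowest adjusted p first) and the 6 genes with the nearest profile are named. STAT5A, STAT5B, B4GALT1, ATP2B2, EPCAM, CDH1, KRT19, PLIN4 and the neighbouring genes were added with their values in view. A planned search of promoter motifs was not run here.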

Additional observations from a re-analysis of the deposited data

How the results depend on the processing

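Each of the 6 milk protein genes that fell kept its direction and its call under every alternative that could test it, and so did MFGE8, with an adjusted p of up to 0.0496 when a library was left out. SLC34A2 kept its direction, with log2 fold changes of 1.87 to 2.50 without single libraries, and lost its call without C1 and without C2. Asking at least 10 counts of every library left 2 of the 8 genes lower and 1 higher, since the filter removes CSN1S1, CSN3, LALBA, FABP9 and SLC34A2. With a fold threshold of 2 on the log2 scale, 1 gene was higher and MFGE8 no longer counted. Without single libraries 1 to 2 members were higher.

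Pairing the pools in a block gave 800 higher and 770 lower genes, against 521 and 591 without it, and the calls of the 8 genes did not change. The block also called 1 gene of milk lipid synthesis higher and 1 of lactose and ion transport lower, as did DESeq2 (1 lower) and scaling to luminal counts (1 lower). Scaling to luminal counts called 919 genes lower and 1 other milk protein gene higher. With library totals only, 1 lipid gene was lower. Without single libraries, 342 to 509 genes were higher, 421 to 548 lower, 1 to 3 lactose and transport genes higher and 0 lipid genes lower. The largest drop in the count of higher genes came without C1 (342).

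After division by gene length, which here includes introns, CSN1S1 took 3.31% in carcinoma and 9.18% in control, CSN2 55.1% and 35.3%, CSN3 13.9% and 13.1%, and LALBA 27.8% and 42.4%. For CSN3 and LALBA the lengths used were 0.634 and 1.33 of the RefSeq span. Without the 10 most abundant features, all 8 genes took 0.196% of control counts. The sign of 4 uncalled genes changed. CDH1 ran from −0.14 (without C2) to 0.19 without single libraries, with −0.11 without T1, and had −0.25 scaled to luminal counts, KRT19 ran from −0.31 (without T2) to 0.67, with −0.19 without C1, and had −0.10 scaled to luminal counts, EPCAM ran from −0.62 to 0.026 (without C1), and HAPLN3 from −0.24 (without T2) to 1.25, with −0.17 without C1. The cause of these changes was not tested. Depth limits the genes with few counts in T2, above all FABP9, CSN1S1 and LALBA.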
